A study of Mus musculus with 6 samples.

Results

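Nuclear factor erythroid 2-related factor 2 (NRF2, encoded by Nfe2l2) is a transcription factor that switches on genes for protection against oxidants. The adaptor protein KEAP1 holds it in check by handing it to a ubiquitin ligase, and oxidants or electrophiles that modify KEAP1 cysteines release it. One arm of its programme is the thioredoxin system, in which NADPH is the source of electrons. Thioredoxin reductase passes them to thioredoxin, thioredoxin to peroxiredoxins that destroy hydrogen peroxide, and sulfiredoxin repairs peroxiredoxins that peroxide has overoxidised. In pigment cells this chemistry matters because melanin synthesis itself gives rise to quinones and peroxide.

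The 10 genes described here were taken by symbol, as a set put together with earlier results of these data known: the regulators Nfe2l2 and Keap1, the quinone reductase gene Nqo1, the thioredoxin cycle genes Txnrd1, Txn1, Prdx1 and Srxn1, and the NADPH supply genes G6pdx, Pgd and Me1. All 10 had a row among the 27067 gene rows of the table, and all 10 passed the filter on low counts. Polyadenylated RNA was sequenced from B16F10, a mouse melanoma line that makes pigment, in 3 control libraries and in 3 libraries of cells given Polianthes tuberosa (tuberose) extract. The control libraries carry the name blank, and the sources used here do not give the dose, the duration or whether those cells received the solvent of the extract. An effect of a solvent and one of the extract cannot be told apart. No label says whether the libraries of a group came from separate cultures, so the p-values measure only how far these libraries vary, and that variation may be technical.

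The libraries held between 31183728 and 40129044 counts. The 7 pigment cell markers summed to between 16696 and 17302 CPM (read counts scaled to a common library size) in the controls and to between 13888 and 14705 CPM after treatment. Of these markers Tyrp1 was higher after treatment, between 5629 and 6166 CPM against between 5074 and 5429 CPM, and all others were lower. Markers of fibroblasts, immune cells, endothelium and keratinocytes summed to at most 11.3 CPM per list in any library. The immune list was higher in treated libraries, between 8.81 and 9.64 CPM against between 3.86 and 4.46 CPM, mostly through the lysosomal gene Cd68, while Ptprc had 2 counts in all and Cd3e and Adgre1 had no row in the table. The endothelial list was also higher, between 3.23 and 3.98 CPM against between 1.31 and 2.12 CPM, mostly through Vwf, with Cdh5 and Kdr at 2 counts each. Of the fibroblast list Dcn and Thy1, and of the keratinocyte list 4 of 6 genes, had no row either. Transcripts of mitochondrial DNA made up between 2.87% and 2.93% of counts in control and between 3.04% and 3.14% in treated libraries. The part of these shifts in the results was not tested.

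In extract-treated cells 7 of the 10 genes were higher and 3 were lower (edgeR quasi-likelihood test, Benjamini-Hochberg adjusted p under 0.05 over 15150 tested genes). Over all tested genes, 25.1% were called higher, 27.9% lower and 53.0% in either direction, so that a call alone sets no gene apart in this comparison. Of all called genes 47.4% were higher, or 62.5% when libraries were scaled by their totals instead of by TMM factors. The sulfiredoxin gene Srxn1 rose most, by 2.21-fold, followed by Nqo1 at 1.52-fold, Txnrd1 at 1.30-fold and G6pdx at 1.25-fold. Me1, Pgd and Nfe2l2 rose by less, at 1.17-fold, 1.13-fold and 1.09-fold. Keap1 fell by 17.6%, Prdx1 fell by 11.8% and Txn1 fell by 10.5%. In each of the 10 genes the 3 treated libraries lay on the same side of all 3 controls, 7 above and 3 below. Over all tested genes this held for 58.7%, with 28.4% above and 30.3% below. Srxn1 and Nqo1 were the 2 members called higher by at least 1.5-fold, as were 8.77% of tested genes. The median log2 fold change of the 10 was 0.21, beside 0.01 over all tested genes. In these bulk libraries, a change in RNA per cell and a change in the share of cells that express a gene cannot be told apart.

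**Figure D1:**
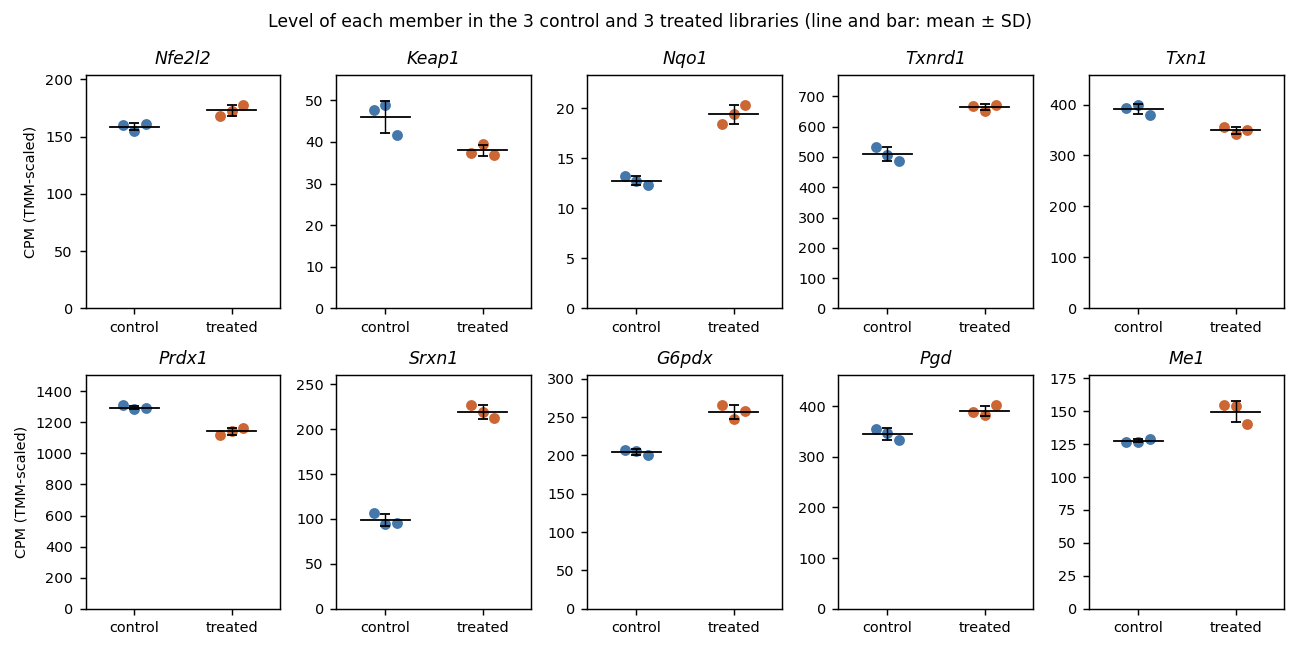
Level of each of the 10 genes in CPM (vertical axes from 0) in the 3 control libraries (blue) and the 3 treated libraries (orange), with the mean and SD in black. Srxn1 stands at 94.7 to 107 CPM in the controls and 212 to 226 CPM after treatment, and in every panel the points of the groups do not overlap.

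The windows around the transcription start sites are shown because NRF2 binds, together with small MAF proteins, to antioxidant response elements in such regions, and AP-1 factors bind to a related shorter element. The sequences are those of RefSeq on build GRCm38.p6, from 250 bases before to 50 bases after each start, and were matched for all 10 genes, in 14 windows. They were read for the core of the antioxidant element, TGACNNNGC, for the same letters with G in the fourth place, TGAGNNNGC, and for the AP-1 element TGACTCA, each on both strands. The TGAGNNNGC form was added after the letters of the Srxn1 window were seen. Lower-case letters are the window in the direction of the gene, and capitals mark every match to any of the 3 motifs.
Srxn1, chr2:152105274-152105573, plus strand: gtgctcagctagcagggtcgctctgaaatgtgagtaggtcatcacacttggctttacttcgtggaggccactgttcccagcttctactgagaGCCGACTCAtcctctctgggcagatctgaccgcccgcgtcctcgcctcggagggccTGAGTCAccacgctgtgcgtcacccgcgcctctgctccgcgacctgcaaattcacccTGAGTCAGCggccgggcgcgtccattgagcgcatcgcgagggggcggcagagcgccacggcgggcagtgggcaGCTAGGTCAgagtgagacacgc
Txnrd1, middle window of 3, chr10:82858956-82859255, plus strand: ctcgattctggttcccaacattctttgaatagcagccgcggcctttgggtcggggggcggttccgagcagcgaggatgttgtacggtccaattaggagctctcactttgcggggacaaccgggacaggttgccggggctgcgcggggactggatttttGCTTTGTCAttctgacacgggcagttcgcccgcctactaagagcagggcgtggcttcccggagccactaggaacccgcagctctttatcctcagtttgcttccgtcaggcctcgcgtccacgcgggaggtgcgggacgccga
Prdx1, chr4:116685349-116685648, plus strand: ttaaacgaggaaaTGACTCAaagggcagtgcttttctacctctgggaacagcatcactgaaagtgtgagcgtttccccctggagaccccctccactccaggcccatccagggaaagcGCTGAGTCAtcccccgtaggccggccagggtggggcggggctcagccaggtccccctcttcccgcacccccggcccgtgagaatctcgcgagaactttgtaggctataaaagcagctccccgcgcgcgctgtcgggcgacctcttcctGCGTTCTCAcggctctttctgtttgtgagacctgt
G6pdx, chrX:74428831-74429130, minus strand: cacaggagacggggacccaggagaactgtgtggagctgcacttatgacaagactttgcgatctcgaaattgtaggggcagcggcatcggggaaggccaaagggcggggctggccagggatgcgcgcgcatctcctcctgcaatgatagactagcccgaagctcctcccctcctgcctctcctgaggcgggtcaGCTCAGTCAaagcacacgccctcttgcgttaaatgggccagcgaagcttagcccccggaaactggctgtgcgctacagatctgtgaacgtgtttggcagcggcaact
Me1, upstream window of 2, chr9:86695865-86696164, minus strand: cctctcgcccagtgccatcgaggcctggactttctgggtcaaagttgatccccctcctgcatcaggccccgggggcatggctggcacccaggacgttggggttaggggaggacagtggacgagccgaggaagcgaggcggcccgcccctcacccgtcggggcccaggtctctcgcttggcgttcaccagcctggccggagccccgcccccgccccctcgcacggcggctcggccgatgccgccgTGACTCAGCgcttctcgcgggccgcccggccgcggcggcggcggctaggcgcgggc

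TGACNNNGC was found in a window of 7 of the 10 genes, namely Srxn1, Txnrd1, Prdx1, G6pdx, Me1, Nfe2l2 and Pgd, and in none of the windows of Keap1, Nqo1 and Txn1. Of 27025 genes with a window, 14.0% held it. Counting the first transcribed base as 0, the match lay at -57 to -49 in G6pdx and at -92 to -84 in Txnrd1, both on the opposite strand. In Srxn1 it lay after the start, at 28 to 36, on the opposite strand. It lay at -6 to 2 in Me1, on the gene's strand. The Pgd match, also on the gene's strand, lay at 3 to 11 in the downstream of its 2 windows. The upstream window of Pgd held no match, nor did the other windows of Txnrd1 and Me1. TGACTCA was found in Srxn1, Prdx1 and Me1, against 5.95% of all genes with a window. In Prdx1 and Me1 it overlapped the antioxidant core, since their match reads TGACTCAGC, a form held by 0.503% of all genes with a window. In Srxn1 the TGACTCA match at -45 to -39 overlapped a TGAGNNNGC match at -45 to -37, a motif that 2 of the 10 genes and 19.8% of all genes held. The core letters thus stood near an annotated start of genes that rose (Srxn1, G6pdx, Nfe2l2 and, at 1 of their starts only, Txnrd1, Me1 and Pgd). They also stood near that of Prdx1, which fell. Nqo1, which rose, held no core match, nor did Keap1 and Txn1, which fell. A match is a description of letters, and binding was not measured. Sequence farther than 250 bases before or 50 bases after a start was not read, so a gene without a match may hold one there.

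**Figure D2:**
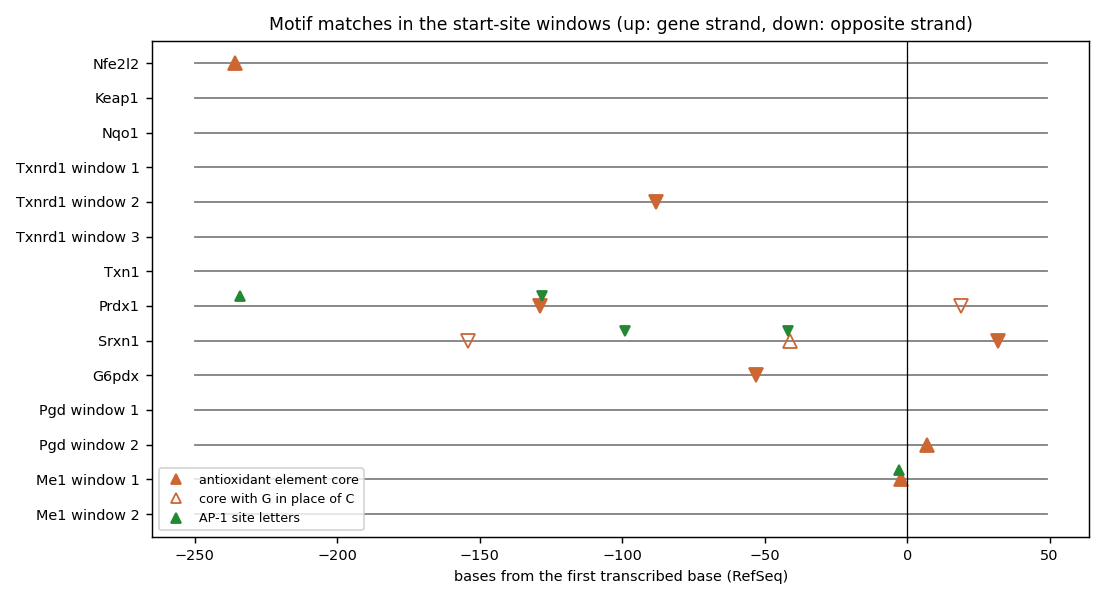
Positions of motif matches in the 14 start-site windows, in bases from the first transcribed base at 0 (horizontal axis), with filled orange for the antioxidant core, open orange for its form with G, and green for the AP-1 letters. Triangles point up for the gene's strand and down for the opposite strand; matches of the core stand in 7 of the 14 windows.

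Among the regulators, the NRF2 gene rose slightly and the gene of its inhibitor fell. Nfe2l2 (ENSMUSG00000015839) measured 160, 155 and 161 CPM in control and 168, 173 and 178 CPM in treated libraries. The lowest treated library lay just above the highest control. The change from 159 ± 3.01 to 173 ± 4.63 CPM (SD, n = 3 per group) equalled 0.12 ± 0.03 (SE) as a log2 ratio of treated over control (edgeR, adjusted p = 6.22e-04), the smallest rise among the members, and 36.8% of tested genes had a larger rise. Its size depended on the scaling, with 0.20 for library totals and 0.23 for level-dependent offsets. Keap1 (ENSMUSG00000003308) measured 47.6, 48.8 and 41.7 CPM in control and 37.4, 39.4 and 36.9 CPM in treated libraries. Control replicate 3 was the lowest of the controls and came closest to the treated libraries. The change equalled -0.28 ± 0.05 (SE) as a log2 ratio (edgeR, adjusted p = 1.05e-04, 95% interval -0.39 to -0.17), and values without each library in turn ran from -0.34 to -0.24. The fall of Keap1 was smaller with library totals, at -0.20 (edgeR adjusted p = 0.00280), and was -0.24 with level-dependent offsets. An antisense gene, Gm16754, shares 209 bases with a Keap1 transcript. Its 209 counts equalled 2.43% of those of Keap1, and the sources used here do not say whether the counting used strand. Summed with it, Keap1 had a log2 fold change of -0.27.

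Nqo1 (ENSMUSG00000003849) encodes NAD(P)H quinone dehydrogenase 1, which reduces quinones without a radical intermediate and is a widely used readout of NRF2 activity. Its level was 13.3, 12.7 and 12.4 CPM in control, and reached 18.4, 19.5 and 20.3 CPM in treated libraries. The groups were well apart. The change from 12.8 ± 0.465 to 19.4 ± 0.962 CPM equalled 0.60 ± 0.07 (SE) as a log2 ratio (edgeR, adjusted p = 2.91e-07, 95% interval 0.45 to 0.75), and 11.0% of tested genes had a larger rise. Its paralogue Nqo2, which uses another electron donor, went the other way, from 22.6 ± 1.37 to 14.9 ± 0.25 CPM, a log2 ratio of -0.60 ± 0.07 (SE; adjusted p = 1.21e-07 in edgeR).

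In the thioredoxin cycle, the genes of the reductase and of the repair enzyme rose, and those of the carrier and of the peroxidase were slightly lower. Txnrd1 (ENSMUSG00000020250) encodes the cytosolic thioredoxin reductase, a selenoprotein that transfers electrons from NADPH to thioredoxin. It measured 532, 507 and 486 CPM in control and 667, 652 and 671 CPM in treated libraries. All treated libraries lay far above the controls, whose spread was the wider. The change from 508 ± 23.2 to 663 ± 10.1 CPM equalled 0.38 ± 0.03 (SE) as a log2 ratio (edgeR, adjusted p = 1.50e-11). Srxn1 (ENSMUSG00000032802), whose start-site window with 2 AP-1 matches is printed above, encodes sulfiredoxin, which uses ATP to reduce the sulfinic acid of overoxidised peroxiredoxins. It measured 107, 94.7 and 95.2 CPM in control and 226, 219 and 212 CPM in treated libraries. The treated libraries lay far above every control. The change from 99.0 ± 7.03 to 219 ± 7.31 CPM equalled 1.14 ± 0.04 (SE) as a log2 ratio (edgeR, adjusted p = 6.71e-17, 95% interval 1.07 to 1.22), and 3.17% of tested genes had a larger rise.

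Txn1 (ENSMUSG00000028367) encodes cytosolic thioredoxin, the small carrier that reduces peroxiredoxins and other disulfides. It measured 394, 399 and 379 CPM in control and 356, 342 and 351 CPM in treated libraries. The groups did not overlap, but the gap was narrow beside the level. The fitted log2 ratio was -0.16 ± 0.02 (edgeR, adjusted p = 6.52e-06). Prdx1 (ENSMUSG00000028691) encodes peroxiredoxin 1, an abundant cytosolic peroxidase and a substrate of sulfiredoxin. It measured 1309, 1288 and 1289 CPM in control and 1119, 1146 and 1163 CPM in treated libraries, again with a small but complete separation. The fitted log2 ratio was -0.18 ± 0.02 (edgeR, adjusted p = 6.33e-09). Both falls depended on the scaling. With library totals they were -0.08 for Txn1 and -0.10 for Prdx1 and still passed. With level-dependent offsets, which remove any trend of fold change with expression level, they were -0.02 (edgeR adjusted p = 0.429) and -0.01 (edgeR adjusted p = 0.647), and neither passed. Both genes have processed pseudogenes. Reads assigned to Txn-ps1 equalled 0.181% of the count of Txn1, and those assigned to Gm21399 and Gm7204 together 0.688% of that of Prdx1. How reads that match a gene and its copy equally were counted was not examined. These shares therefore do not show whether the counts of the genes were affected.

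**Figure D3:**
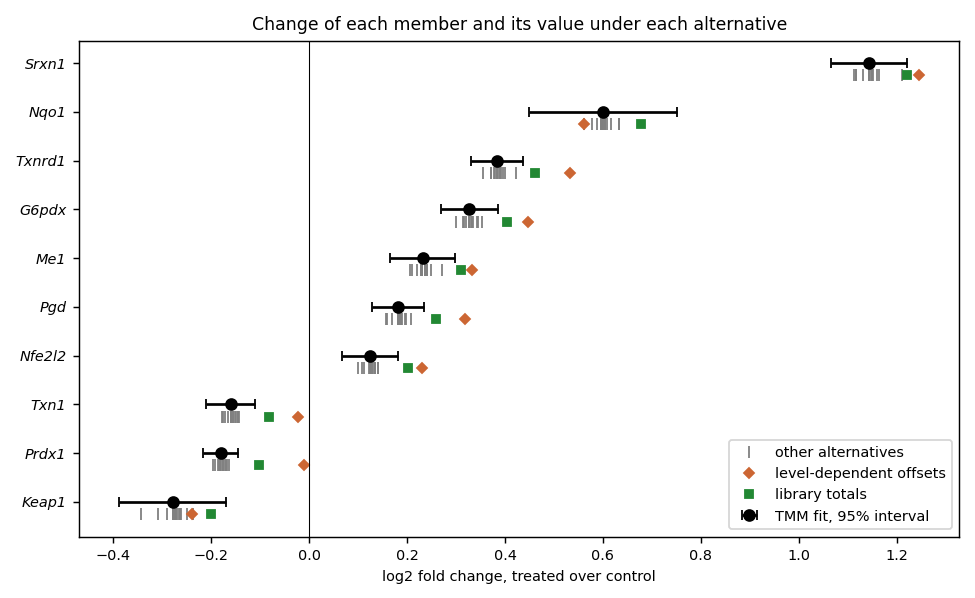
Log2 fold change of each gene, treated over control (horizontal axis), with the fitted value and its 95% interval in black and the value under each alternative below it. Library totals (green) and level-dependent offsets (orange) shift most genes to the right, and with the offsets Txn1 and Prdx1 lie at -0.02 and -0.01.

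Ratios of paired members within a library do not change with a scaling that uses 1 factor per library, although level-dependent offsets would move them. A total of 5 pairs was compared, chosen after the values were seen, as ratios of counts per kilobase of the longest principal transcript annotated. Txnrd1 over its substrate gene Txn1 was 0.402, 0.378 and 0.382 in control and 0.558, 0.567 and 0.569 in treated libraries. Srxn1 over its substrate gene Prdx1 was 0.0667, 0.0600 and 0.0602 in control and 0.165, 0.156 and 0.149 in treated libraries. Reductase over carrier was thus 1.46-fold higher and repair enzyme over peroxidase 2.51-fold higher in treated cells, with no overlap of the groups. Without each library in turn, these folds ran from 1.44 to 1.49 and from 2.44 to 2.60. Nfe2l2 over Keap1 was 1.32-fold higher (5.06 ± 0.509 in control and 6.66 ± 0.323 in treated libraries), and G6pdx over Pgd was 1.11-fold higher. These 4 ratios have an exact two-sided permutation p = 0.1, the smallest that 3 libraries against 3 can give (0.125 after Benjamini-Hochberg adjustment over the 5 ratios). Prdx1 over Txn1 overlapped between the groups, at 1.52 ± 0.0396 in control and 1.498 ± 0.050 in treated libraries (exact permutation p = 0.6).

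**Figure D4:**
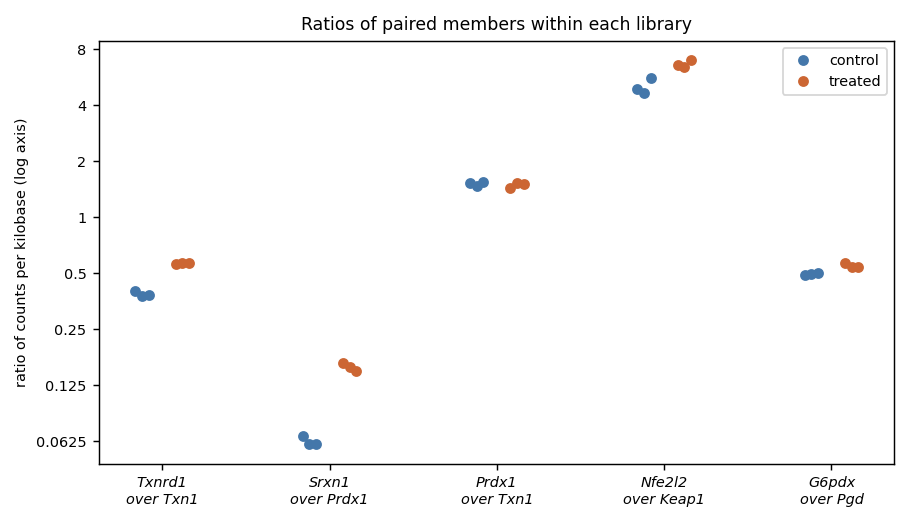
Ratio of counts per kilobase of paired genes in each control (blue) and treated (orange) library, on a log axis. Txnrd1 over Txn1 and Srxn1 over Prdx1 are separated between the groups, whereas Prdx1 over Txn1 overlaps at about 1.5 in both.

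The 3 NADPH supply genes rose. G6pdx (ENSMUSG00000031400) encodes glucose-6-phosphate dehydrogenase, the entry enzyme of the pentose phosphate pathway. It measured 208, 206 and 200 CPM in control and 265, 247 and 258 CPM in treated libraries, with the groups far apart. The fitted log2 ratio was 0.33 ± 0.03 (edgeR, adjusted p = 9.80e-10). Its retrogene G6pd2, which is 93.2% identical over 2332 bases, had 3 counts in all, so that few reads were assigned to the copy. Pgd (ENSMUSG00000028961) encodes 6-phosphogluconate dehydrogenase, the second NADPH-forming enzyme of that pathway. It measured 355, 346 and 332 CPM in control and 389, 383 and 402 CPM in treated libraries. The groups were apart by 27.3 CPM, and the fitted log2 ratio was 0.18 ± 0.03 (edgeR, adjusted p = 3.04e-06), or 0.32 with level-dependent offsets. Me1 (ENSMUSG00000032418) encodes the cytosolic malic enzyme, which forms NADPH from malate. It measured 127, 127 and 129 CPM in control and 154, 154 and 141 CPM in treated libraries. Treated replicate 3 was the lowest of its group and still above all controls. The fitted log2 ratio was 0.23 ± 0.03 (edgeR, adjusted p = 1.82e-06), and 3 annotated near-copies together held 0.672% of its count.

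Compared per length, as CPM per kilobase of the longest principal transcript, the peroxiredoxin and thioredoxin genes were the most abundant of the 10 in both groups. Prdx1 stood at 565 ± 5.26 in control and 498 ± 9.74 in treated libraries, and Txn1 at 372 ± 9.77 and 333 ± 6.49. Pgd followed at 155 ± 5.26 and Txnrd1 at 144 ± 6.57 in control, a pair whose ranges overlapped, and in treated libraries Txnrd1 stood above Pgd, at 188 ± 2.87 against 176 ± 4.36, with no overlap. G6pdx (77.1 ± 1.43), Nfe2l2 (64.1 ± 1.21), Me1 (38.8 ± 0.356), Srxn1 (35.2 ± 2.50), Keap1 (12.7 ± 1.06) and Nqo1 (8.24 ± 0.299) came next in control, each apart from its neighbours. In treated libraries Srxn1, at 77.9 ± 2.60, moved above Nfe2l2 (69.8 ± 1.87) and Me1 (45.5 ± 2.37), and Nqo1 (12.5 ± 0.619) moved above Keap1 (10.5 ± 0.366). These are levels and depend on the transcript taken. With the length of all annotated exons of a gene, Prdx1 and Txn1 stayed at the top, while Txnrd1 and G6pdx stood above Pgd in both groups, and Srxn1 stood above Me1 already in control.

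Other genes of the same chemistry did not rise as a block. Over all tested genes 25.1% were called higher and 27.9% lower, the shares to set beside each list below. Of 26 other thioredoxin, peroxiredoxin and glutaredoxin genes tested, 5 rose, 13 fell and 8 did not pass, with a median log2 fold change of -0.16 beside 0.01 over all tested genes. Txnip, which encodes a protein that binds and inhibits thioredoxin, rose most, from 64.8 ± 3.65 to 176 ± 4.07 CPM, a log2 ratio of 1.44 ± 0.03 (SE; adjusted p = 2.15e-19 in edgeR). Msrb3, a methionine sulfoxide reductase gene, rose by a log2 fold change of 0.69 ± 0.07. Sesn2, a stress-induced sestrin gene, fell by 0.87, and the mitochondrial peroxiredoxin gene Prdx3 and the mitochondrial glutaredoxin gene Glrx5 fell by 0.43 and 0.45 on the log2 scale. Another mitochondrial reductase gene of the list, Msrb2, fell by 0.46. Of the peroxiredoxins beside Prdx1, Prdx2, Prdx3 and Prdx4 fell, whereas Prdx5 and Prdx6 rose by log2 fold changes of 0.39 and 0.12. With library totals Prdx6 was at 0.19, Prdx2 at -0.12 and Prdx4 at -0.11, and with level-dependent offsets Prdx2 was at -0.09. Txnrd2 and Txn2, the mitochondrial counterparts of Txnrd1 and Txn1, had log2 fold changes of -0.05 (edgeR adjusted p = 0.480) and -0.27 (edgeR adjusted p = 1.07e-08), the latter -0.16 with level-dependent offsets.

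A list of 17 tested genes of selenoprotein synthesis and of selenoproteins, without those kept on the other lists, held 1 that rose, 9 that fell and 7 that did not pass (median log2 fold change -0.15). Library totals gave 4 higher and 8 lower, level-dependent offsets 2 and 8, and there were 3 higher without treated replicate 1. The gene of this list that rose was Selenok, an endoplasmic reticulum selenoprotein gene, by a log2 fold change of 0.36 ± 0.05. Eefsec, which encodes the elongation factor for selenocysteine, fell by 0.42, and Selenoh and Selenot fell by 0.74 and 0.33 on the log2 scale. The fall of Selenot was 0.21 on that scale with level-dependent offsets. Of the selenoprotein genes on other lists, Gpx4 and Gpx3 were called higher, by log2 fold changes of 0.10 and 1.22, Gpx1 and Txnrd3 fell by 0.39 and 0.24, and Txnrd2 and Msrb1 did not pass. Gpx4 was at 0.22 with level-dependent offsets, with which Gpx3 did not pass (edgeR adjusted p = 0.0964). No test of Txnrd1 against these genes was made.

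Of 19 other genes of NADPH supply and the pentose phosphate pathway, 17 were tested, and of these 4 rose, 8 fell and 5 did not pass (median log2 fold change -0.13). The folate enzyme gene Aldh1l2, whose mitochondrial product forms NADPH, rose from 215 ± 18.8 to 467 ± 6.68 CPM, a log2 ratio of 1.12 ± 0.04 (SE; adjusted p = 1.14e-16 in edgeR), and its cytosolic relative Aldh1l1 rose by a log2 fold change of 0.78 ± 0.06. Me3, a mitochondrial malic enzyme gene, rose by 0.65 ± 0.13, from 3.87 to 6.12 CPM. The more highly counted mitochondrial malic enzyme gene Me2 fell by 0.39 on the log2 scale from 112 CPM (edgeR adjusted p = 3.12e-10), and the mitochondrial isocitrate dehydrogenase gene Idh2 fell by 0.32, or 0.18 with level-dependent offsets. The folate enzyme genes Mthfd1 and Mthfd2 fell by 0.59 and 0.58 on the log2 scale. Below Pgd in the pentose phosphate pathway, genes of the non-oxidative branch went the other way from G6pdx and Pgd, with log2 fold changes of -0.24 for Tkt, -0.13 for Taldo1 and -0.19 for Rpe, while Rpia, at -0.17, did not pass (edgeR adjusted p = 0.0582). With level-dependent offsets Tkt and Rpe fell by 0.11 and 0.12, and Taldo1, at -0.03, no longer passed (edgeR adjusted p = 0.385), nor did it with library totals (-0.05, edgeR adjusted p = 0.0858). H6pd, which encodes the endoplasmic reticulum form of the first steps of that pathway, rose by a log2 fold change of 0.42 ± 0.05. Nnt, the mitochondrial transhydrogenase gene, was low throughout, at 0.987 CPM in the controls and 0.978 CPM after treatment (edgeR adjusted p = 0.992).

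Of 21 tested partners and regulators of NRF2, 9 rose, 5 fell and 7 did not pass (median log2 fold change 0.08), and 13 rose with library totals. All 3 small MAF genes, whose products pair with NRF2, rose: Maff from 6.52 to 12.1 CPM (log2 fold change 0.89 ± 0.09), Mafk by 0.61 ± 0.06 and Mafg by 0.11 ± 0.03, or 0.20 with level-dependent offsets. Sqstm1, which encodes the autophagy receptor p62 that binds KEAP1, rose from 1021 to 1594 CPM, a log2 ratio of 0.64 ± 0.02 (SE; adjusted p = 5.55e-19 in edgeR). Bach1 and Bach2, whose products repress the same elements, rose from 48.9 to 60.6 CPM and from 2.78 to 5.60 CPM, and the NRF2 relative Nfe2l1 by a log2 fold change of 0.21 ± 0.02, or 0.35 with level-dependent offsets. Cul3 and Rbx1, subunits of the ligase that KEAP1 serves, fell by 0.19 and 0.21 on the log2 scale, and by 0.07 and 0.11 with level-dependent offsets. The other called genes of the list were Gsk3b and Syvn1, higher at log2 fold changes of 0.18 and 0.24, and Dpp3, Palb2 and Pgam5, lower at -0.25, -0.29 and -0.32.

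Of 32 targets of NRF2 outside the 10 genes, mostly in glutathione, heme and drug metabolism, 29 were tested, and of these 14 rose, 8 fell and 7 did not pass (median log2 fold change 0.08). Tkt, Taldo1 and Idh1 stand on this list as well as on that of NADPH supply, so that Tkt and Taldo1 are counted among the genes that fell in both. The number that fell was 3 with library totals or level-dependent offsets and 5 without control replicate 1. Slc7a11, the cystine transporter gene, and Hmox1, the heme oxygenase gene, rose by log2 fold changes of 1.21 ± 0.03 and 1.18 ± 0.04, close in size to Srxn1. Gclm, the regulatory subunit gene of glutathione synthesis, rose by 0.72 ± 0.04, Trim16 by 1.21 ± 0.27 from a mean of 0.754 CPM, and the ferritin gene Fth1, which has near-identical copies, by 0.39 ± 0.01. Of those that fell, Ugdh, which encodes UDP-glucose dehydrogenase, fell by 0.36 on the log2 scale (edgeR adjusted p = 7.25e-09). The other ferritin gene, Ftl1, was at -0.15 (edgeR adjusted p = 1.44e-08), but at -0.07 with library totals and at 0.0254, with the sign turned, with level-dependent offsets (edgeR adjusted p = 0.175). Gsr, whose product is the glutathione counterpart of thioredoxin reductase, was slightly lower, at -0.15 on the log2 scale (edgeR adjusted p = 0.00444), a call that did not pass with library totals (edgeR adjusted p = 0.170), with level-dependent offsets (edgeR adjusted p = 0.178) or without control replicate 1 (edgeR adjusted p = 0.0684).

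**Figure D5:**
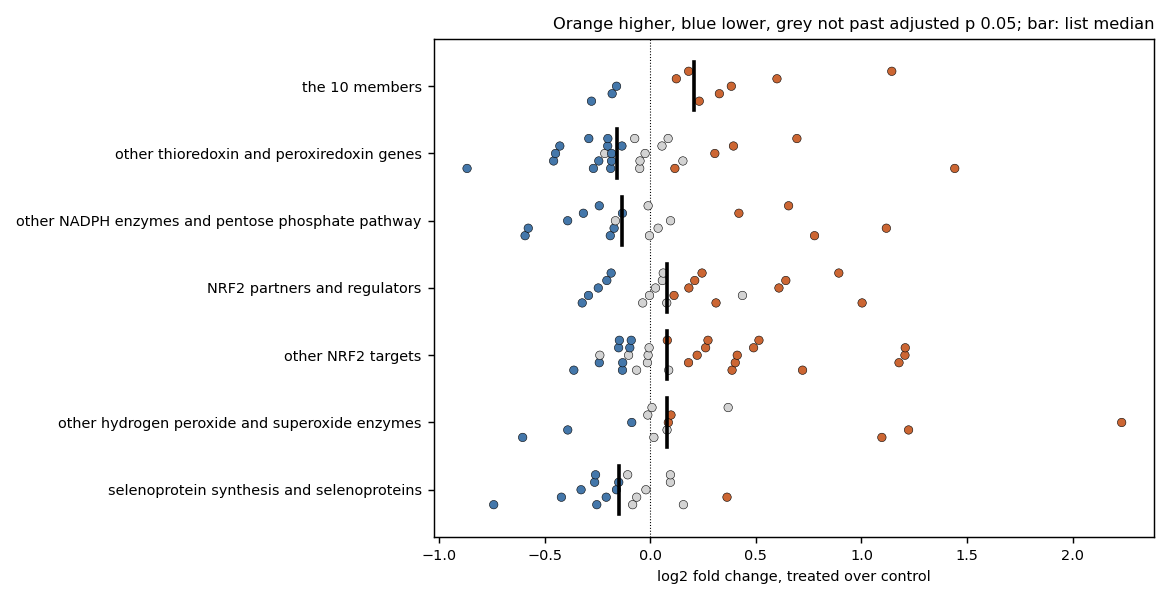
Log2 fold change, treated over control (horizontal axis), of the 10 genes and of the tested genes of 6 related lists, coloured by call, with the median of each list as a bar. The members' median lies at 0.21, and those of the other thioredoxin genes, other NADPH enzymes and selenoprotein genes lie at -0.16, -0.13 and -0.15. The medians of the NRF2 partners, the other NRF2 targets and the peroxide and superoxide enzymes each lie at 0.08.

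The genes with the profile nearest to the 3 members of largest change were found among 9945 protein-coding genes whose mean reached 5 CPM, as the root mean square difference over the 6 libraries of log2 CPM centred on each gene's control mean. Among the nearest to Srxn1 were Insig1 (0.063), a regulator of sterol synthesis, and Fosl2 (0.065), an AP-1 subunit gene. Among the nearest to Nqo1 were Dusp6 (0.033) and Primpol (0.034). Nearest to Txnrd1 were Tmbim1 (0.012), Tmem60 (0.020) and Akap7 (0.023). The log2 fold changes of Insig1 and Fosl2 were 1.14 and 1.10, next to 1.14 for Srxn1. Because the genes were picked by the nearness of these profiles, similar fold changes follow from the selection.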

How the data were processed

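Read counts per gene, not normalised, were deposited by the authors for 6 libraries, with Ensembl IDs as row names. The submitters' processing notes name HISAT2 2.2.0, featureCounts 2.0.6 and fastp 0.22.0, and builds hg38 and mm39 are listed with no role. The sources used here do not give the annotation release or the strand setting. The 6 columns were matched by library name, 0 were left unmapped, and 0 rows named no gene. GENCODE M21 gave symbols to 26531 of 27067 identifiers.

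Genes kept by filterByExpr (minimum count 10, total 15; 15150 genes) were scaled by TMM factors and tested, treated against control, in edgeR 4.0.16 (R 4.3.3; quasi-likelihood F test), with group as the only term, two-sided, with Benjamini-Hochberg adjustment. The fit was tested on simulated data with few changed genes, in random directions. Far more genes changed here, so that test does not bear on the scaling of these libraries. CPM use TMM-scaled totals. SE is the absolute log2 fold change over the square root of F. Pairs of libraries of a group differed beyond sampling noise (lowest chi-square per gene 3.25), and none was counted as a repeat. Copies of members were sought with blastn 2.17.0 (85% identity over 150 bases).

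The members and lists were chosen with earlier results of these data known. Named beside the members are, per list, up to 4 changed genes of smallest p and up to 4 of largest change, the copies, and the 3 nearest profiles of 3 members, some of which are not reported here. Other genes were named after their values were seen. Alternatives were median-of-ratios factors, library totals, level-dependent offsets from cyclic loess (limma 3.58.1), other filters, restriction to protein-coding genes, a block for the replicate number, DESeq2 1.42.0, leaving out each library, and sums with copies.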

Additional observations from a re-analysis of the deposited data

How the results depend on the processing

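The count of members higher was 7 under every alternative run, and that of members lower was 3 under each except level-dependent offsets, where it was 1 because Txn1 and Prdx1 no longer passed. The cause was not tested. No member changed sign under any alternative, and of the other genes whose alternatives were computed Ftl1 did, at 0.0254 with level-dependent offsets. Over all genes, 8032 changed, 3809 higher and 4223 lower, and leaving out each library gave 7389 to 7598, 3412 to 3600 and 3903 to 4098. DESeq2 called 7414. With library totals 62.5% of called genes were higher, against 47.4% with TMM. No label says that the same replicate number pairs libraries of both groups. Correlations of deviations were -0.01, -0.04 and 0.01 for numbers 1, 2 and 3, and not every library was closest to its own number. Such values do not settle whether the libraries were paired. With the replicate block 8061 genes were called and no member changed its call. Gpx3 lost its call with level-dependent offsets (edgeR adjusted p = 0.0964), in DESeq2 (adjusted p = 0.0567) and without control replicate 2 or 3 or treated replicate 1 or 3 (edgeR adjusted p from 0.0538 to 0.0880). Members had at least 396 counts in every library, so depth did not limit their calls.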

Other observations

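A list of 16 other genes, mostly for making or removing superoxide and hydrogen peroxide, also held the Nqo1 paralogue Nqo2. Of these, 13 were tested, and 5 were higher, 3 lower, Nqo2 included, and 5 did not pass (edgeR quasi-likelihood test, adjusted p under 0.05). The median log2 fold change of those tested was 0.08. Library totals gave 7 higher and 2 lower, and level-dependent offsets 5 and 2. Over all tested genes 25.1% were called higher and 27.9% lower. Duox1, which encodes an oxidase that releases hydrogen peroxide, rose from 0.314 ± 0.0516 to 1.502 ± 0.0275 CPM (errors are SD over 3 libraries), a log2 ratio of 2.23 ± 0.32 (SE; adjusted p = 2.48e-06 in edgeR). Sod3, the gene of the extracellular superoxide dismutase, rose from 4.03 ± 0.462 to 8.64 ± 0.784 CPM, a log2 ratio of 1.10 ± 0.12 (SE; adjusted p = 5.12e-08 in edgeR). Gpx3, the gene of a secreted glutathione peroxidase, rose from 0.215 to 0.519 CPM, a log2 ratio of 1.22 ± 0.45 (SE; adjusted p = 0.0246 in edgeR), a call that 6 alternatives did not keep. Gpx1, the gene of the cytosolic glutathione peroxidase, fell by 0.39 on the log2 scale (edgeR adjusted p = 1.09e-08). Sod1, the gene of the cytosolic superoxide dismutase, did not pass, at 197 CPM in the controls against 200 CPM after treatment (edgeR adjusted p = 0.607).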
